A study of Mus musculus with 12 samples.

Results

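Whether hyodeoxycholic acid (HDCA) did the same to liver gene expression in 2 models of cholestasis was read from 1 contrast: the HDCA effect after bile duct ligation minus the HDCA effect in the second model. The contrast used 12 of the 12 liver libraries of the series, in 4 groups of 3, and was computed for 10805 of 16970 genes. Each effect is the mean log2(FPKM + 1) of the HDCA libraries minus that of the untreated libraries of the same model. FPKM is a read count per length of gene model and per library depth. The difference is the first effect minus the second. A difference above 0 means that the HDCA effect was more positive in the ligation model, and a difference below 0 that it was more positive in the other.

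The groups are called by their titles. BDL livers came from mice with a bile duct ligation of 7 days. BDL_H mice had the same ligation and, once 3 days had passed after surgery, were given HDCA at 100 mg/kg for 4 days. MDR and MDR_H were taken as untreated and HDCA-treated Abcb4-/- mice, the other model that the series' design text names. That text gives an age of 60 days for the Abcb4-/- mice and an HDCA dose of 100 mg/kg for 21 days. No label of a library names Abcb4, and the strain is not given in the sources used here. Dose was thus the same, but the length of treatment, the kind of injury and the genotype all changed together between the models, and their parts in a difference cannot be told apart. Healthy livers were not analysed here. The labels do not state whether each library is its own mouse, and the spread behind the tests may therefore be technical.

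HDCA is a hydrophilic bile acid. Bile duct ligation blocks the outflow of bile and brings on duct proliferation and periductal fibrosis within days. Abcb4 moves phosphatidylcholine into bile, and without it bile acids damage the small ducts and a slowly progressing sclerosing cholangitis follows. In both, activated stellate cells and portal fibroblasts lay down collagen. Circulating Igf1 comes mainly from hepatocytes, which make it in response to growth hormone through the receptor, the kinase Jak2 and the transcription factor STAT5. STAT5 also drives Socs2 and Cish, which dampen the signal, and Igfals, which holds Igf1 in the circulation.

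The libraries held 34260782 to 40427855 reads, recovered from the steps of the FPKM values. Alb, the albumin gene of hepatocytes, was the most abundant gene in all 12 libraries. BDL replicate 1 and BDL_H replicate 2 stood apart, with a median log2(FPKM + 1) of 2.48 and 2.56 over tested genes against 2.81 to 3.06 in the other 10. The summed FPKM of 4 Y-linked genes was 16.1 to 19.6 in the 6 ligation libraries and 20.1 in MDR replicate 1, but 0 to 0.016 in the other 5 MDR and MDR_H libraries. The models thus also differed in Y-linked reads, and so did MDR from MDR_H through 1 library. Sex is not given in the labels, and its part in a difference between the models cannot be told apart from that of the model. Abcb4 read 181, 150 and 162 FPKM in MDR and 165, 155 and 129 in MDR_H, against 52.8, 152 and 168 in BDL and 160, 72.1 and 178 in BDL_H. It was therefore not lower in the groups taken as Abcb4-/-. Reads from outside a deleted part would still be counted, so this value checks the label only in part.

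No gene differed in its HDCA effect between the models after adjustment. By limma with Benjamini-Hochberg adjustment, 0 of 10805 genes (0%) passed an adjusted p of 0.05, and the smallest adjusted p was 1.00. Every gene below therefore has an adjusted p of 1.00, and is described by its values; intervals are for single genes and are not widened for the number of genes. At an unadjusted p under 0.05 there were 200 genes (1.85%), fewer than the 5% that this threshold alone would pass if no gene differed and genes were independent. Of these, 149 (1.38%) had a more positive effect in the BDL model and 51 (0.472%) in the MDR model. That lean depended on the scaling: it was 168 against 139 after median-of-ratios scaling and 158 against 153 after quantile normalization. It also depended on single libraries, at 59 against 55 without MDR replicate 2, 85 against 70 without BDL_H replicate 3 and 97 against 70 without BDL replicate 1. limma-voom on the recovered reads called 0 genes as well.

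Across genes, on FPKM as deposited, the effects of HDCA were small and their signs leaned apart. The shares of genes by sign and the correlation below were not worked out under other scalings. HDCA libraries were higher on average for 6351 genes (58.8%) in the BDL model and for 3885 genes (36%) in the MDR model, so that the difference was above 0 for 7020 genes (65%). Its median was 0.07, and moved to -0.01 with median-of-ratios scaling and to -0.02 without BDL replicate 1. The effects had opposite signs in 6382 genes (59.1%), and correlated over genes at r = -0.22, a description over genes that are not independent. The effects share no libraries. The median standard error of a difference was 0.24, with a 95% interval reaching 0.52 to either side. For 8579 genes (79.4%) the whole interval lay within 1 log2 unit of 0, so for these a difference of more than 2-fold on this scale lay outside the interval. In the plot of the effect in each model, most genes sit close to the origin, and the 24 named genes, 12 per side, lie off the diagonal.

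**Figure D1:**
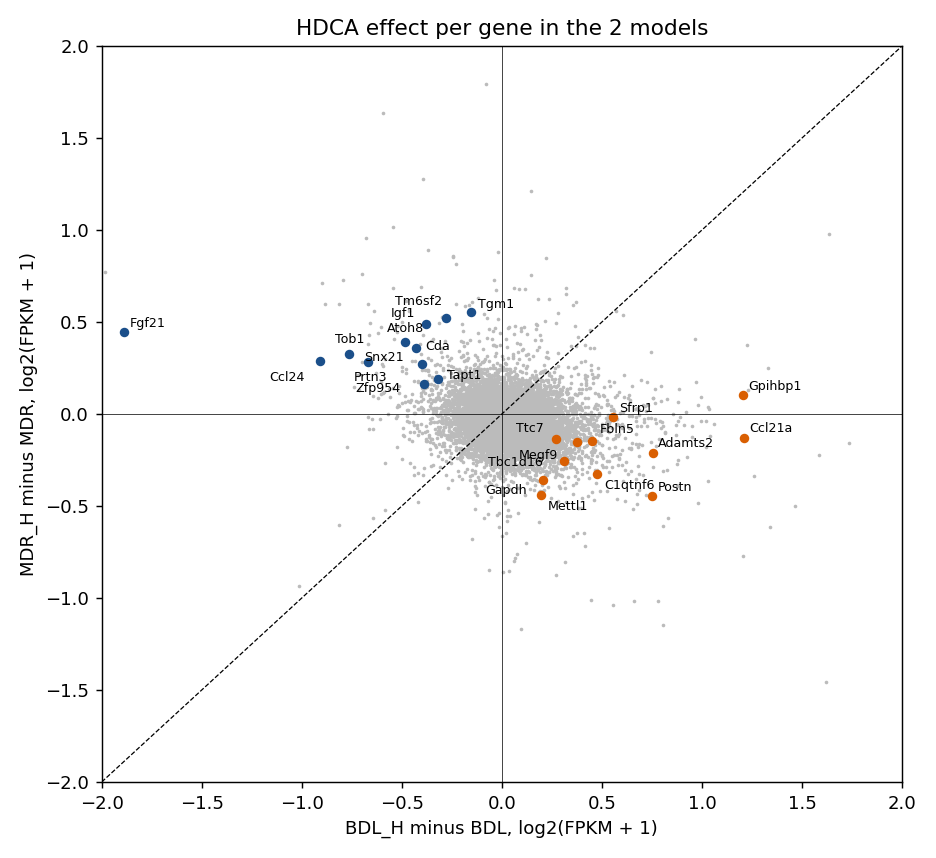
HDCA effect per gene in the BDL model (x axis) and the MDR model (y axis), both as differences of mean log2(FPKM + 1). Grey points are 10802 of the 10805 tested genes (3 lie outside the axes), the dashed line marks equal effects, orange marks the 12 named genes with the smallest p and a more positive effect in BDL, and blue the 12 with a more positive effect in MDR. Igf1, at -0.38 in BDL and 0.49 in MDR, has the smallest p.

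The strictest pattern is one where all HDCA libraries lie on one side of the untreated ones in one model and on the other side in the other model. It was seen for 21 genes (0.194%) with BDL_H wholly above BDL and MDR_H wholly below MDR. The reverse was seen for 7 genes (0.0648%). Those 7 were Igf1, Cda, Snx21, Atoh8, Ccl24, Tapt1 and Sarnp, the last named after its values were seen. The counts were 17 and 18 after median-of-ratios scaling and 19 and 18 after quantile normalization. With 3 libraries per group, such separation can also come from noise alone. The share of genes expected that way was not worked out, so the counts cannot be read as more than noise would give. The pattern, in these genes and in those described below as apart in both models, is a description only.

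Igf1, the growth factor that the liver secretes in response to growth hormone (GRCm38 chr10:87858265-87937042), had the smallest p of all genes. BDL libraries gave FPKM of 68.1, 56.0 and 54.9, and BDL_H libraries 48.0, 42.1 and 46.7. In the other model it was 62.8, 50.4 and 49.6 in MDR and 74.7, 74.6 and 79.3 in MDR_H. Every BDL_H library was thus below every BDL library, and every MDR_H library above every MDR library. The effect was -0.38 ± 0.13 (SE) in the BDL model and 0.49 ± 0.13 in the MDR model. The difference was -0.87 ± 0.18, with a 95% interval from -1.26 to -0.47 (limma, adjusted p = 1.00). It stayed between -0.97 and -0.77 when any 1 library was left out, and was -0.71 without BDL replicate 1 and BDL_H replicate 2.

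Socs2, Igfals, Prlr and Cish, of the same axis, all had a difference below 0. They belong to a list of 18 tested genes, of which 9 had a difference below 0 and 9 above, up to 1.08. Socs2, the feedback inhibitor of the growth hormone receptor, read 2.96, 1.5 and 0.588 FPKM in BDL and 0.840, 0.361 and 1.02 in BDL_H. It read 0.910, 2.00 and 2.06 in MDR and 2.56, 4.46 and 2.75 in MDR_H. The ligation groups overlapped, while all MDR_H libraries were above all MDR libraries. The Socs2 difference was -1.23 ± 0.45 (95% interval -2.21 to -0.25). It shrank to -0.73 without BDL replicate 1 and BDL_H replicate 2, and to -0.51 without these and MDR replicate 1.

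Igfals, the acid-labile subunit that stabilises Igf1 in plasma, read 42.5, 19.4 and 26.7 FPKM in BDL and 23.3, 9.02 and 24 in BDL_H. It read 31.5, 28.3 and 27.1 in MDR and 35.2, 52.4 and 46.9 in MDR_H. Again only the MDR and MDR_H groups were apart. The difference was -1.27 ± 0.49 (interval -2.34 to -0.19), and -0.83 without BDL_H replicate 2. Without BDL replicate 1 and BDL_H replicate 2 it was -0.54, and without these and MDR replicate 1 it was -0.60. Prlr, the prolactin receptor, read 14.5, 7.53 and 7.16 FPKM in BDL, 6.66, 4.10 and 5.44 in BDL_H, 3.10, 9.70 and 12.9 in MDR and 8.28, 16.0 and 17.8 in MDR_H. Here the ligation groups were apart and the MDR groups overlapped. The Prlr difference was -1.46 ± 0.61 (interval -2.80 to -0.12), and -0.93 without MDR replicate 1, the library with Y-linked reads, in which Prlr was lowest. Without BDL replicate 1 and BDL_H replicate 2 the Prlr difference was -1.01, and without these and MDR replicate 1 it was -0.48.

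Cish, the other feedback inhibitor, overlapped between groups in both models. It read 7.06, 5.41 and 1.81 FPKM in BDL, 3.45, 3.55 and 8.73 in BDL_H, 3.22, 3.40 and 5.71 in MDR and 8.98, 9.03 and 5.02 in MDR_H. The difference was -0.61 ± 0.58, with an interval from -1.89 to 0.66. Leaving out BDL replicate 1 gave -0.30, leaving out BDL replicate 3 gave -1.06, and leaving out BDL replicate 1 together with BDL_H replicate 2 gave -0.12, so the Cish value depended on single libraries. Of the 18 tested genes of the growth hormone and Igf1 list, 4 (22.2%) had an unadjusted limma p under 0.05, all on the MDR side, against 1.85% of all genes. The list was drawn up with earlier results on Igf1 known. The list as a whole did not lean: 9 of 18 genes had a difference above 0 and 9 below, and its median was -0.17, or 0.00 without BDL_H replicate 2.

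The promoters of this axis are shown for 2 members because STAT5 binds a known short palindrome. The motif searched was TTCNNNGAA, which reads the same on both strands, in windows from 250 bases before to 50 after the RefSeq start on GRCm38.p6. It was present in 2726 of 32851 promoters (8.30%) and in 4 of the 16 list members with an entry, namely Bcl6, Cish, Igfals and Prlr. The first count is of promoter windows and the second of genes, which may have several windows, so the shares are not alike. The windows shown were chosen among those with a match. The windows of Cish (chr9:107296409-107296708, plus strand), with 2 matches, and Igfals (chr17:24877594-24877893, plus strand), with 1 match, are given 5′ to 3′ with the matches in capitals.
Cish: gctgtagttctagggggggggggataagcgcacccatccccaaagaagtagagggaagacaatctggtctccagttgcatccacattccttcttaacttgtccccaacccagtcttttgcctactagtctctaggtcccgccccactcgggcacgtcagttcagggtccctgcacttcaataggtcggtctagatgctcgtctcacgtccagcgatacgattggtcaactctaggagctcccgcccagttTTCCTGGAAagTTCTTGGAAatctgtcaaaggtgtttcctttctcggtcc
Igfals: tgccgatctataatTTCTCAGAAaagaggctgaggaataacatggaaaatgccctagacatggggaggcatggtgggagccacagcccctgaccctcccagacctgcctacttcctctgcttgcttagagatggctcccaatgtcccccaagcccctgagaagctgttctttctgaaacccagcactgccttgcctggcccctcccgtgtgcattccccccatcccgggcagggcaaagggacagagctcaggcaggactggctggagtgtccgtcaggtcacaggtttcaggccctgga
In Cish both matches lie near the start site, and in Igfals the match lies near the upstream end of the window. A match is a description of the sequence and not of binding.

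Other genes on the MDR side came from several processes. Cda, cytidine deaminase of the pyrimidine salvage pathway (chr4:138338424-138367992), read 7.31, 8.74 and 8.47 FPKM in BDL, 5.64, 6.06 and 5.73 in BDL_H, 6.69, 8.79 and 8.18 in MDR and 9.59, 11.9 and 9.67 in MDR_H. Neither pair of groups overlapped. The Cda difference was -0.79 ± 0.18, from an effect of -0.43 in BDL and 0.36 in MDR (interval -1.18 to -0.39). Snx21, a sorting nexin of endosomes, was also apart in both models, at 2.64, 2.56 and 2.69 FPKM in BDL, 1.84, 1.40 and 2.05 in BDL_H, 3.38, 3.60 and 2.98 in MDR and 4.14, 3.99 and 4.47 in MDR_H. Its difference was -0.67 ± 0.16. Atoh8, a helix-loop-helix transcription factor, read 21.8, 16.4 and 14.8 FPKM in BDL, 12.9, 11.7 and 11.9 in BDL_H, 13.2, 14.9 and 16.0 in MDR and 17.2, 24.2 and 17.7 in MDR_H. It was apart in both models, with a difference of -0.87 ± 0.23.

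In other genes the groups were apart in 1 model and overlapped in the other. Prtn3, proteinase 3 of neutrophil granules, read 10.6, 13.3 and 13.8 FPKM in BDL and 6.30, 7.42 and 8.92 in BDL_H, but only 0.232, 0.605 and 0.138 in MDR and 0.510, 0.606 and 0.678 in MDR_H. All BDL_H libraries were below all BDL libraries, and the MDR groups, at under 1 FPKM, overlapped. In bulk liver, fewer cells of a type and less RNA per cell cannot be told apart, here and for the marker lists described later. Of 19 listed neutrophil markers 9 were tested, and 7 of these had a difference above 0, unlike Prtn3. The Prtn3 effect was -0.67 in BDL and 0.28 in MDR, and the difference -0.95 ± 0.23 (interval -1.46 to -0.45). Fgf21, a hormone that stressed or fasted liver secretes, read 16.7, 10.7 and 6.13 FPKM in BDL and 2.26, 1.85 and 2.14 in BDL_H. It read 0.447, 0.762 and 3.88 in MDR and 0.493, 2.04 and 5.92 in MDR_H. Only the ligation groups were apart, with an effect of -1.89 in BDL and 0.44 in MDR. The Fgf21 difference was -2.33 ± 0.79, with an interval from -4.06 to -0.61.

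Ccl24, a chemokine that attracts eosinophils, read 3.18, 5.24 and 5.35 FPKM in BDL, 3.08, 0.914 and 2.22 in BDL_H, 2.06, 1.40 and 2.31 in MDR and 2.40, 2.58 and 2.63 in MDR_H. Its groups were apart in both models, though narrowly at the nearest libraries, and the difference was -1.19 ± 0.36. Tob1, an antiproliferative protein, read 68.6, 52.5 and 63.1 FPKM in BDL against 42.6, 22.6 and 46.6 in BDL_H, and 38.8, 37.7 and 57.4 in MDR against 53.3, 50.3 and 62.7 in MDR_H. Its ligation groups were apart, and the difference was -1.09 ± 0.36. Differences of -0.51 to -0.80 were found for Tapt1, Zfp954, Tgm1 and for Tm6sf2, which helps load lipid onto lipoproteins.

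**Figure D2:**
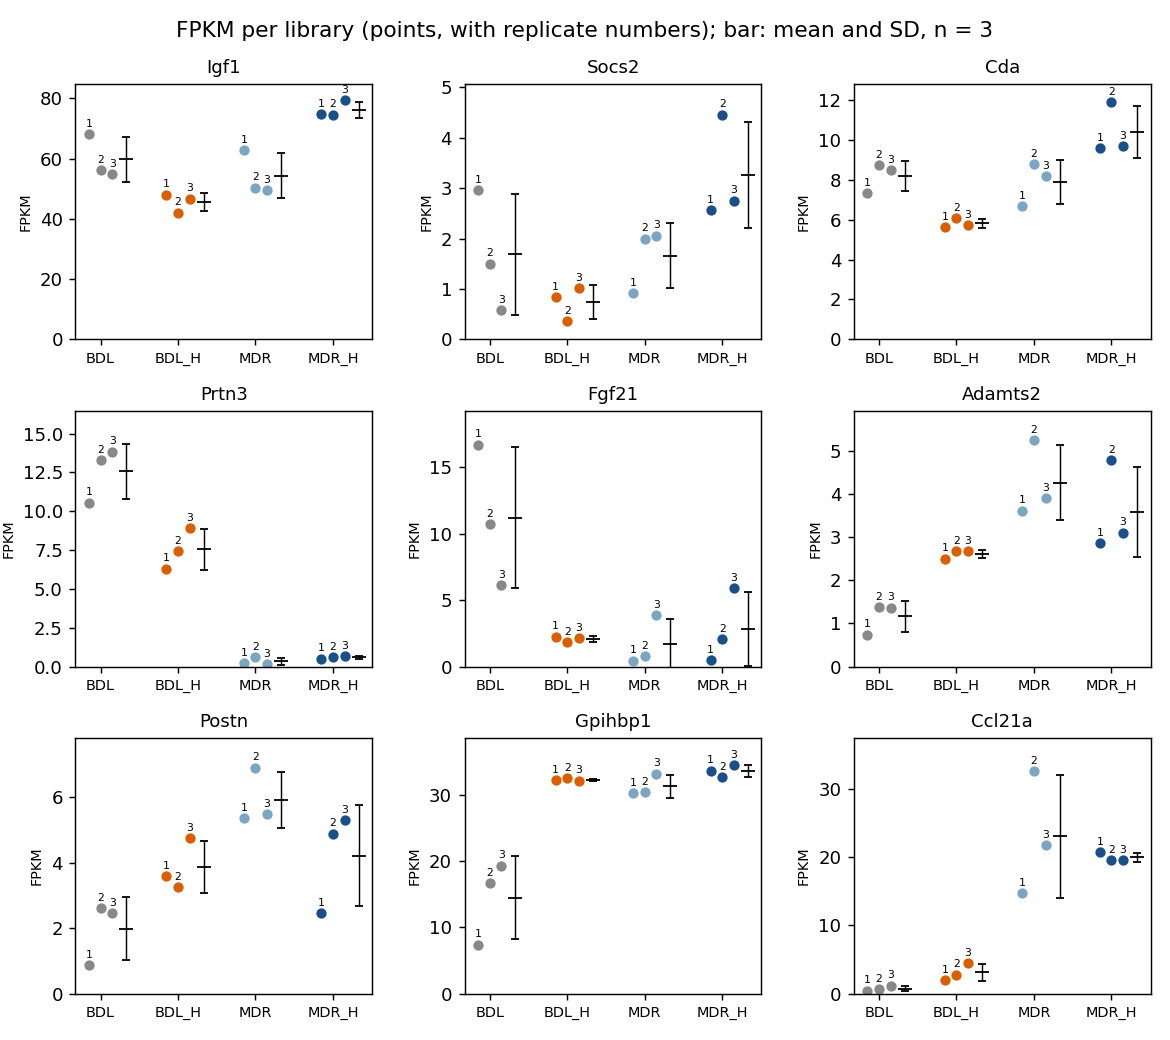
FPKM of 9 genes in each library (y axis, from 0), by group (x axis); points are libraries with their replicate numbers, and the bar beside them is the mean and SD (n = 3). Igf1 and Cda are lower in all BDL_H than in all BDL libraries and higher in all MDR_H than in all MDR libraries, while Adamts2, Gpihbp1 and Ccl21a are higher in all BDL_H than in all BDL libraries.

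On the BDL side, 4 of the 12 named genes with the smallest p belong to the matrix or stellate cell lists: Adamts2, Fbln5, Sfrp1 and Postn. Those lists hold 45 and 23 of the 10805 tested genes. Both were drawn up with earlier results of these data known, so the overlap is no separate support. Adamts2, the protease that trims the ends of procollagens (chr11:50602084-50807573), read 0.741, 1.38 and 1.37 FPKM in BDL and 2.50, 2.67 and 2.67 in BDL_H. It read 3.61, 5.24 and 3.91 in MDR and 2.85, 4.78 and 3.10 in MDR_H. The ligation groups were apart and the MDR groups overlapped. Each MDR_H library was below the MDR library of its number, but no label says that a shared number marks a pair. The effect was 0.75 ± 0.18 in BDL and -0.21 ± 0.18 in MDR, and the difference 0.96 ± 0.26 (interval 0.39 to 1.53). Postn, periostin, a matrix protein of activated fibroblasts (chr3:54361109-54391037), read 0.876, 2.61 and 2.47 FPKM in BDL, 3.59, 3.25 and 4.76 in BDL_H, 5.36, 6.90 and 5.47 in MDR and 2.46, 4.89 and 5.30 in MDR_H. It was apart in opposite directions, in the MDR model narrowly. The Postn difference was 1.2 ± 0.39, with an interval from 0.34 to 2.06.

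Fbln5, a fibulin of elastic fibres, read 0.303, 0.422 and 0.576 FPKM in BDL, 0.916, 0.971 and 0.981 in BDL_H, 1.97, 2.97 and 2.47 in MDR and 1.85, 2.38 and 2.14 in MDR_H. Its difference was 0.60 ± 0.18. Sfrp1, a secreted antagonist of Wnt, read 0.432, 0.545 and 0.667 FPKM in BDL, 1.28, 1.46 and 1.10 in BDL_H, 1.99, 2.36 and 2.71 in MDR and 2.28, 2.73 and 1.93 in MDR_H. In both genes the ligation groups were apart and the MDR groups overlapped, and the Sfrp1 difference was 0.57 ± 0.19. C1qtnf6, a secreted protein with a C1q domain, gave 0.80 ± 0.23, with 0.604, 1.00 and 1.39 FPKM in BDL, 1.77, 1.75 and 1.72 in BDL_H, 1.90, 2.75 and 2.45 in MDR and 1.34, 2.02 and 1.70 in MDR_H. Fbn1 and Mfap4, both of microfibrils, gave 1.01 ± 0.38 and 0.89 ± 0.35.

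The fibrillar collagens themselves were less sharply resolved. Col1a1 read 8.85, 11.1 and 12.8 FPKM in BDL, 17.3, 10.7 and 33.4 in BDL_H, 12.2, 26.5 and 24.8 in MDR and 8.52, 23.1 and 15.3 in MDR_H. Groups overlapped in both models, and the difference was 1.16 ± 0.60 (95% interval -0.16 to 2.48), or 0.75 without BDL_H replicate 3. Col3a1 gave 1.39 ± 0.69 (interval -0.12 to 2.90), or 0.87 without BDL replicate 1. Acta2, smooth muscle actin of activated stellate cells, gave 1.10 ± 0.64 (interval -0.29 to 2.50), or 0.59 without BDL replicate 1 and 0.69 without BDL_H replicate 3.

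Among the lists, those of matrix, stellate cell and endothelial genes had medians well above that of all genes. The medians of Y-linked (0.86), male-biased (0.77) and erythroid genes (0.64) were also well above it. All lists were drawn up with earlier results of these data known, so their medians and shares are descriptions only. Of 45 tested matrix and fibrosis genes, 43 had a difference above 0, against 65% of all genes, and the median was 0.63 against 0.07. The median effect was 0.45 in the BDL model and -0.21 in the MDR model. At an unadjusted limma p under 0.05 there were 9 matrix genes on the BDL side (20% of the list, against 1.38% of all genes) and 0 on the MDR side (against 0.472%). The mean level of the list, in log2(FPKM + 1), was 1.93, 2.50 and 2.64 in BDL, 2.79, 2.45 and 3.15 in BDL_H, 3.25, 3.96 and 3.69 in MDR and 3.11, 3.77 and 3.37 in MDR_H. The groups thus overlapped in both models, and BDL replicate 1 was lowest of all. Each MDR_H library was lower than the MDR library of its number, but no label says that a shared number marks a pair. The libraries numbered 1 also differed in summed Y-linked FPKM, at 20.1 in MDR and 0.016 in MDR_H. Without BDL replicate 1 the median difference was 0.45, and with median-of-ratios scaling it was 0.58.

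The 23 tested stellate cell and fibroblast markers had a median difference of 0.50, with 22 above 0, and 0.31 without BDL replicate 1. Among them, 3 (13.0%, against 1.85% of all genes) had an unadjusted limma p under 0.05: Postn, Sfrp1 and Myl9, a myosin light chain of contractile cells, at 0.92 ± 0.41, or 0.59 without BDL_H replicate 3.

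All 31 tested endothelial markers had a difference above 0. The median was 0.75, from a median effect of 0.71 in BDL and -0.04 in MDR, and 6 markers (19.4%, against 1.85% of all genes) had an unadjusted limma p under 0.05. As mean log2(FPKM + 1), the list stood at 1.52, 2.41 and 2.98 in BDL against 3.00, 2.90 and 3.04 in BDL_H. It was 3.22, 3.54 and 3.52 in MDR and 3.21, 3.45 and 3.50 in MDR_H. BDL replicate 1 was far below the other 11 libraries. The median difference was 0.36 without BDL replicate 1, with 27 of 31 markers above 0, and 0.39 without BDL replicate 1 and BDL_H replicate 2.

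Gpihbp1 (chr15:75596628-75599481) encodes the endothelial protein that anchors lipoprotein lipase in capillaries. It read 7.39, 16.7 and 19.3 FPKM in BDL and 32.2, 32.5 and 32.1 in BDL_H, against 30.2, 30.3 and 33.2 in MDR and 33.6, 32.6 and 34.5 in MDR_H. The 9 libraries outside BDL lay between 30.2 and 34.5, and the 3 BDL libraries all lay lower. The difference was 1.10 ± 0.36 (interval 0.32 to 1.88), or 0.71 without BDL replicate 1. Whether the level of endothelial markers sets that of Gpihbp1 was not tested.

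Ccl21a, a chemokine of lymphatic endothelium, read 0.441, 0.633 and 1.17 FPKM in BDL, 2.02, 2.80 and 4.52 in BDL_H, 14.7, 32.6 and 21.7 in MDR and 20.7, 19.6 and 19.6 in MDR_H. The ligation groups were apart, and the difference was 1.34 ± 0.39. The gene has near-identical copies that may share its reads, so its level is uncertain. Erg, a transcription factor of endothelium, gave 0.75 ± 0.30, and Vwf, von Willebrand factor, gave 0.68 ± 0.30, or 0.43 without BDL replicate 1.

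Gapdh, the glycolytic enzyme often used as a reference gene, had groups that did not overlap in either model, in opposite directions. It read 42.4, 51.7 and 47.3 FPKM in BDL, 55.2, 55.0 and 52.7 in BDL_H, 84.1, 70.6 and 78.1 in MDR and 68.7, 59.3 and 53.4 in MDR_H. The Gapdh difference was 0.56 ± 0.17 (interval 0.18 to 0.95). Separation in both models was also seen for Tbc1d16, a regulator of Rab GTPases, at 0.56 ± 0.17, and for Megf9, a membrane protein with EGF-like domains, at 0.53 ± 0.17. Mettl1, a tRNA methyltransferase, gave 0.64 ± 0.21, with only the MDR groups apart, and Ttc7 gave 0.41 ± 0.14, with only the ligation groups apart.

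**Figure D3:**
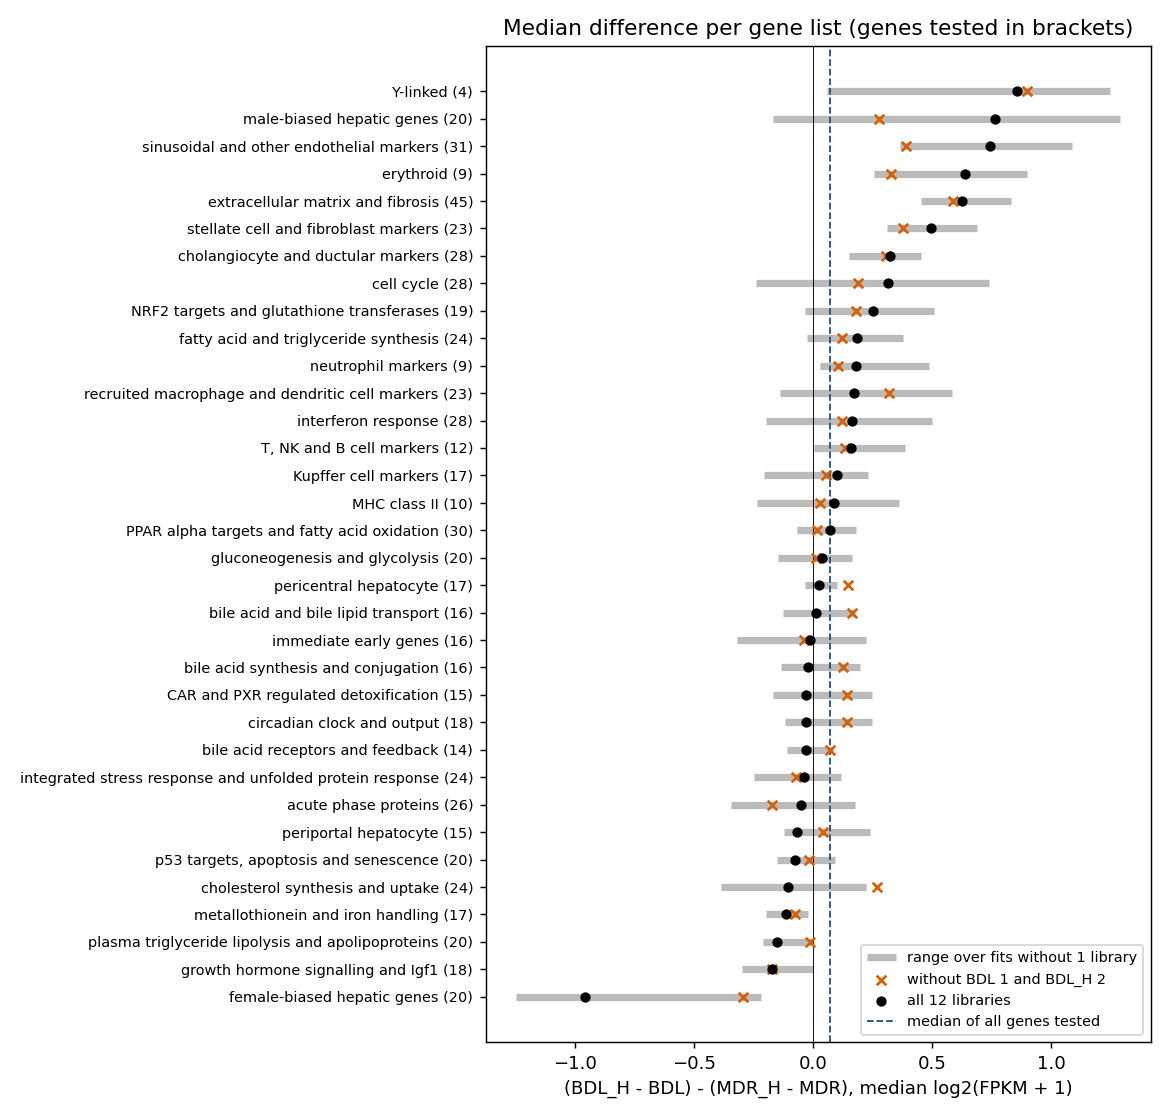
Median difference of HDCA effects per gene list (x axis, log2(FPKM + 1) units; lists on the y axis with the number of tested genes). Black points use all 12 libraries, grey bars span the medians with 1 library left out, crosses leave out BDL replicate 1 and BDL_H replicate 2, and the dashed line is the median of all genes, 0.07. Matrix genes at 0.63 and endothelial markers at 0.75 lie to the right with bars that stay above 0. The bars of Y-linked genes (0.06 to 1.25) and erythroid genes (0.26 to 0.90) also stay above 0. The bar of female-biased genes stays below 0, and that of male-biased genes crosses 0.

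Genes with a sex bias in liver had list medians among the farthest from 0, and these depended on 2 libraries, MDR replicate 1 and BDL replicate 1. These genes respond to the pattern of growth hormone release. The 20 tested male-biased genes had a median difference of 0.77 and the 20 female-biased genes -0.96, with 0 of the 20 above 0. Male-biased genes had a mean log2(FPKM + 1) of 7.65 in MDR replicate 1, the library with Y-linked reads, against 4.34 and 4.53 in the other MDR libraries and 6.09, 4.67 and 4.70 in MDR_H. Female-biased genes stood at 1.65 in that library against 3.55 and 4.01 in the other MDR libraries. Without MDR replicate 1 the medians were -0.17 and -0.22, so the male-biased list changed sign. BDL replicate 1 also stood apart in its group, at 4.33 against 6.45 and 6.48 for male-biased genes and 3.94 against 2.36 and 2.33 for female-biased genes. Without it the medians were 0.14 and -0.35.

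Cyp2c40 and Cyp2c69, close paralogs among the female-biased genes that may share reads, gave -3.74 ± 1.36 and -4.14 ± 1.52. Cyp2c40 read 0.0784, 1.66 and 13.1 FPKM in MDR and 7.59, 39.5 and 111 in MDR_H, and these groups overlapped. Ddx3y, a Y-linked helicase, gave 1.26 ± 1.00 with MDR replicate 1 and 0.09 without it. For Igf1, whose difference is described above, the value was -0.97 without MDR replicate 1, and for Socs2 it was -1.01.

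**Figure D4:**
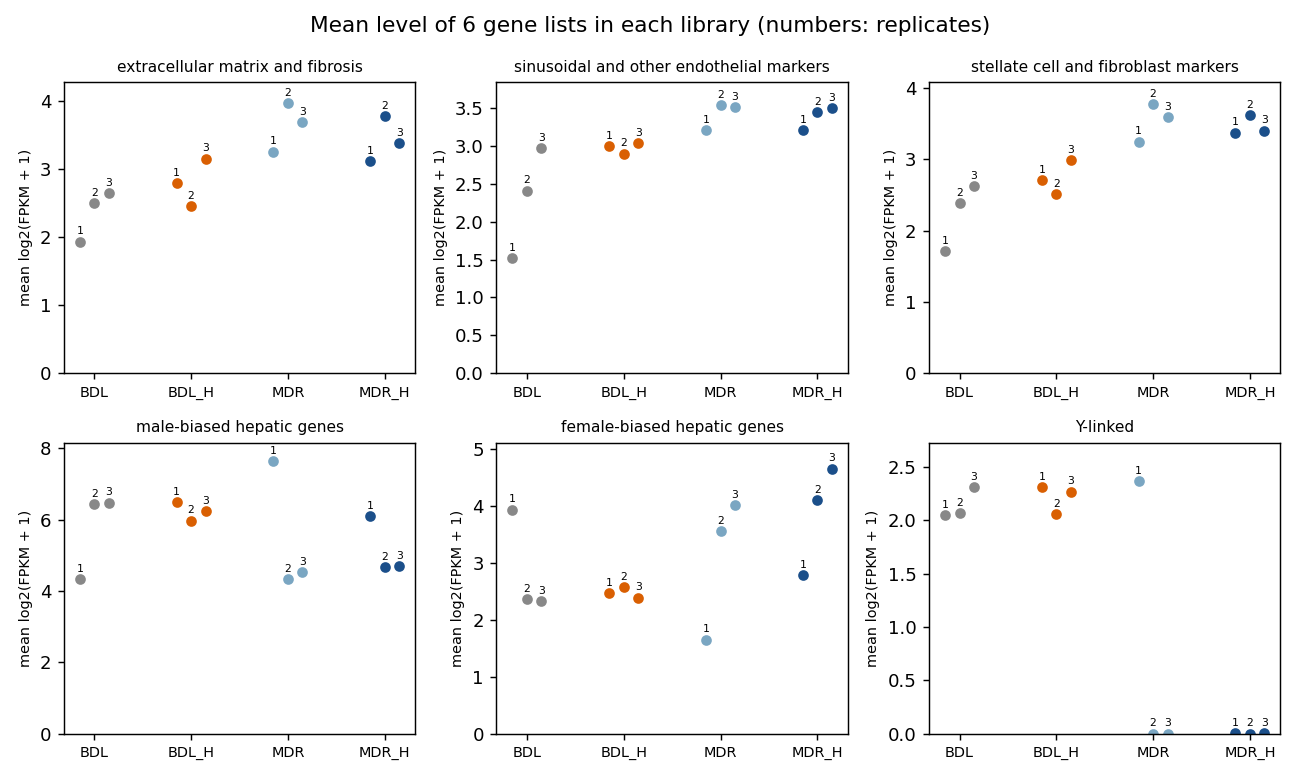
Mean log2(FPKM + 1) of 6 gene lists in each library (y axis, from 0), by group (x axis), with replicate numbers. BDL replicate 1 is lowest for matrix genes at 1.93 and endothelial markers at 1.52, and MDR replicate 1 stands apart from the other MDR libraries for male-biased, female-biased and Y-linked genes.

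Genes of bile acid synthesis had differences on both sides of 0. Of 16 tested genes of bile acid synthesis and conjugation, 8 had a difference above 0 and 8 below, with a median of -0.02. Cyp7a1, whose enzyme limits the rate of bile acid synthesis (chr4:6265612-6275633), read 72.8, 8.87 and 14.7 FPKM in BDL, 35.9, 23.8 and 26.2 in BDL_H, 12.1, 23.3 and 18.8 in MDR and 31.2, 30.6 and 21.2 in MDR_H. BDL replicate 1 was far above the other BDL libraries. The Cyp7a1 difference was -0.24 ± 0.80, and its interval, from -2.0 to 1.53, leaves wide room on both sides; it was 0.62 without BDL replicate 1. Cyp2c70, which makes muricholic acids in mice, was the gene of this list with the smallest p. It read 648, 346 and 397 FPKM in BDL, 320, 237 and 264 in BDL_H, 413, 337 and 357 in MDR and 494, 473 and 329 in MDR_H. Its ligation groups were apart, and the difference was -0.93 ± 0.33 (interval -1.66 to -0.19).

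Of 16 tested bile transport genes and 14 receptor and feedback genes, 0 had an unadjusted limma p under 0.05, where 1.85% of all genes did, so that lists of this size would hold few or none. The medians were 0.01 and -0.03. Nr0b2, the repressor that bile acids induce through FXR, gave -0.21 ± 0.62 (interval -1.58 to 1.16). The export pump gene Abcb11 gave 0.15 ± 0.59 (interval -1.16 to 1.45), and the uptake transporter gene Slc10a1 -0.31 ± 0.50 (interval -1.40 to 0.78). Abcb4 gave 0.34 ± 0.59 (interval -0.94 to 1.62). Each of these 4 took the other sign when at least 1 library was left out, and each interval reaches past a 2-fold difference on at least 1 side.

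The 15 tested detoxification genes regulated by CAR and PXR had 7 differences above 0 and 8 below, from -1.07 to 1.10, with a median of -0.03. Among them Ces2a, a carboxylesterase, gave 0.78 ± 0.31. Cyp1a2, a P450 of the pericentral list, gave 1.16 ± 0.50, or 0.66 without BDL replicate 1. Gsta1, a glutathione transferase with close paralogs, read 5.21, 31.8 and 38.8 FPKM in BDL, 36.6, 25.6 and 30.9 in BDL_H, 18.7, 18.2 and 20.2 in MDR and 7.25, 8.52 and 11.3 in MDR_H. The MDR groups were apart and the ligation groups overlapped, with BDL replicate 1 far below the other ligation libraries. Its difference was 1.68 ± 0.75, or 0.83 without that library. The median of the NRF2 and glutathione transferase list was 0.25, and -0.03 without BDL replicate 1.

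In lipid metabolism, 21 of 24 cholesterol genes had a difference below 0, with a median of -0.10. Without BDL_H replicate 2 that median was 0.22, so its sign rested on 1 library. Fatty acid synthesis genes had a median of 0.19, or -0.02 without BDL replicate 1, and PPAR alpha genes one of 0.07, that of all genes. In both lists 0 genes had an unadjusted limma p under 0.05, against 1.85% of all genes.

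Among stress, clock and iron genes, some single genes lay farther from 0 than the medians of the lists. Atf4, a transcription factor of the integrated stress response, read 87.3, 114 and 87.2 FPKM in BDL, 77.5, 58.9 and 83.2 in BDL_H, 57.7, 55.2 and 51.6 in MDR and 61.7, 66.8 and 52.2 in MDR_H. The ligation groups were apart, and the difference was -0.52 ± 0.22, on the same side as that of Fgf21, a target of Atf4. Over the 24 tested genes of that list the median was -0.04. Nr1d1, a clock repressor whose level follows the time of day, gave 1.8 ± 0.68, or 1.17 without BDL replicate 1, with a list median of -0.03. The time of day at which livers were taken is not given in the sources used here. Id1, a target of BMP signalling, gave -0.84 ± 0.31, and Trp53inp1, a target of p53, gave -0.78 ± 0.35. The Trp53inp1 difference was -0.39 without BDL replicate 1 and BDL_H replicate 2, and -0.23 without these and MDR replicate 1. The median of the metallothionein and iron list was -0.11, and that of the p53 list -0.07.

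Immune and duct marker lists had medians above 0 that varied with the libraries used. The 9 tested neutrophil markers had a median of 0.18, with 7 above 0, which was 0.03 without BDL_H replicate 3 and 0.49 without MDR replicate 1. Of these, Retnlg (1.11 ± 0.45) and the chemokine receptor gene Cxcr2 (0.78 ± 0.31) had differences opposite in sign to Prtn3. The neutrophil marker Ly6g was at 0 in 11 libraries. Gzma, a granule protease of cytotoxic lymphocytes, gave -0.82 ± 0.30, and Cd4, the helper T cell coreceptor, gave 0.45 ± 0.17, both with only the MDR groups apart. Recruited macrophage markers had a median of 0.17, and -0.14 without BDL replicate 1.

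Cholangiocyte and ductular markers had a median difference of 0.33, with 25 of 28 above 0, and 0.15 without MDR replicate 2. Krt19, the duct keratin, read 6.45, 5.64 and 4.50 FPKM in BDL, 5.40, 5.17 and 8.93 in BDL_H, 10.2, 20.5 and 12.2 in MDR and 8.24, 14.7 and 12.3 in MDR_H. Groups overlapped in both models, and the difference was 0.42 ± 0.39 (interval -0.44 to 1.27), or 0.14 without MDR replicate 2. Cldn6, a tight junction protein, gave 0.61 ± 0.28. Cell cycle genes had a median of 0.31, with 27 of 28 above 0, but -0.24 without BDL replicate 1, in which their mean log2(FPKM + 1) was 0.763 against 2.23 and 2.61 in the other BDL libraries. Erythroid genes, a measure of blood in the tissue, had a median of 0.64, with 9 of 9 above 0, and 0.26 without BDL replicate 1. Medians of the lists not described above, among them acute phase, interferon, Kupffer cell and hepatocyte zonation genes, lay between -0.15 and 0.16.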

How the data were processed

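Liver polyA RNA was sequenced in 12 libraries. Tools listed in the submitters' processing notes are HISAT2 2.0.5, featureCounts 1.5.0-p3, CASAVA 1.8, DESeq2 1.20.0 and fastp, with GRCm38 (mm10) as build. Strand use and annotation release: not given in the sources used here. The authors deposited FPKM values for 16970 gene symbols. Groups came from the titles. Values were taken as log2(FPKM + 1), which understates changes of low genes, and a gene was tested if 3 or more libraries reached an FPKM of 1. Group means (4) were fitted in limma 3.58.1, R 4.3.3, with a trend (8 residual degrees of freedom), two-sided, with Benjamini-Hochberg adjustment over 10805 genes. The fit was also run on simulated data in which each gene had the same spread in all groups and no library stood apart. That run does not show how many true differences the fit would miss in these libraries. Whole reads, within a tolerance of 0.02 of a read, were recovered for 16968 of 16970 genes (99.99%) and used only for limma-voom, which called 0 genes. Such depth limits low genes: 2153 had fewer than 10 reads in every library.

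Named genes were the 12 with the smallest p on each side whose mean FPKM reached 2 in some group, up to 4 per side that moved oppositely without overlap, up to 4 per list and fixed key genes; some of these are not reported here. The 34 lists (769 entries), members and rule were chosen with earlier results of these data known.

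Replicate numbers are shared between titles. After subtraction of group means, libraries with one number correlated at 0.312 to 0.548 between MDR and MDR_H, and at -0.43 to 0.431 between BDL and BDL_H. Correlations between unlike numbers are not reported here, and no label marks pairs. The MDR and MDR_H libraries numbered 1 differed in summed Y-linked FPKM, at 20.1 and 0.016. The main fit took no libraries as pairs.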

Additional observations from a re-analysis of the deposited data

How the results depend on the processing

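The number of genes called stayed at 0 in all 26 alternatives, with a smallest adjusted limma p of 0.0799 (Igf1 and Cda, with array weights, whose estimation stopped before convergence). The 200 genes at an unadjusted p under 0.05 became 441 with no filter on low values, 82 with a mean FPKM of at least 5, 307 with median-of-ratios scaling, 311 with quantile normalization, 303 with limma-voom and median-of-ratios, and 1033 with array weights. They became 302 without BDL replicate 1 and BDL_H replicate 2, 597 without these and MDR replicate 1, and 114 (without MDR replicate 2) to 397 (without BDL replicate 3) with 1 library left out, being 337 without BDL_H replicate 2. The cause was not tested.

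With the replicate number as a block the count was 223, with a block within each model 258, and with a block within MDR only, chosen after seeing the data, 226; no block changed a call. The counts of oppositely moving genes under other scalings were also added after seeing the data.

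Of 58 genes named with a fitted difference, 53 kept their sign throughout. Cyp7a1 (-0.24) became 1.06 with array weights, 0.74 without the 2 libraries, 0.98 without the 3, and -0.83 to 0.62 with 1 library left out. In that order the values were 0.43, 0.32, 0.14 and -0.54 to 0.45 for Nr0b2 (-0.21), and 0.094, 0.11, 0.057 and -0.59 to 0.24 for Slc10a1 (-0.31). With 1 library left out Abcb11 (0.15) ranged from -0.17 to 0.75 and Abcb4 (0.34) from -0.19 to 0.75. The cause was not tested. None of the 24 genes named for their p, 12 per side whose mean FPKM reached 2 in some group, changed sign. They were picked by p from these same libraries, so a kept sign was likely from the start and is no separate check. The medians of 8 of 34 lists kept their sign throughout, among them matrix, stellate cell, endothelial and cholangiocyte genes. With 1 library left out, Y-linked (0.06 to 1.25), erythroid (0.26 to 0.90) and female-biased medians (-1.25 to -0.22) kept their sign as well. A kept sign thus does not show that a median is free of single libraries. Depth limits low genes, and 3 libraries per group limit all.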
